A study of Arabidopsis thaliana with 18 samples.

Results

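The warm response of wild-type Arabidopsis seedlings was measured as the difference in gene expression between samples labelled 29 °C and samples labelled 22 °C. It rests on 6 of the 18 RNA sequencing samples of the study, 3 wild-type samples at each temperature, and on 19116 of the 33602 loci in the deposited table, those that reached 1 FPKM in at least 3 of the 18 samples. FPKM is the number of fragments scaled to gene length and to the number of reads in the library, so levels can be compared between genes. The wild type carried the Columbia background and was collected as seedlings of day 7, which all 6 groups of the study share. The other 4 groups were the genotypes labelled BBX18-/-BBX23-/- and PIF4-/- at the same 2 temperatures, with 3 samples each, whose alleles the labels do not name. They entered the fit to share 1 estimate of the spread per gene. The labels do not say how long seedlings stood at 29 °C, under which light or at which hour they were harvested.

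Arabidopsis seedlings raised in moderate warmth elongate their hypocotyls and lift their leaves, a growth response known as thermomorphogenesis that runs through the transcription factor PIF4 and auxin. Warmth also loads protein folding, and heat shock factors then bind short repeats of GAA and TTC in the promoters of chaperone genes. Both programmes overlap with the circadian clock, whose evening complex holds back PIF4 and itself responds to temperature.

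Rose and fell are used of a gene where limma's moderated test, adjusted over all 19116 genes by the Benjamini-Hochberg method, gave a p under 0.05. Fold changes are differences of log2(FPKM + 1), which shrinks the change of genes whose FPKM is low. The value after ± is the standard error for a fold change and the SD for FPKM. The spread behind each p-value is that between these samples and may be technical, since nothing in the labels says whether the 3 samples of a group came from separate cultures.

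Summed FPKM ran from 909028 to 1152582 in the wild-type samples at 22 °C and from 753373 to 935420 at 29 °C, and between 17791 and 18367 genes reached 1 FPKM in a sample. The table holds no read numbers, so the depth behind a value is unknown and no counting interval is given. On the first principal component of the 6 wild-type samples, with 46.8% of the variance, all samples at 22 °C lay below 0 and all at 29 °C above it. The second component, with 20.6%, ran from -28.3 for replicate 1 at 29 °C to 36.95 for replicate 2 at 29 °C. Replicates at 29 °C differed along it by more than the samples at 22 °C, which lay between -9.62 and 16.8. The SD of log2(FPKM + 1) exceeded 1 for 217 genes at 29 °C, 18 of which rose or fell, and for 50 genes at 22 °C. Of the targeted genes, PIF4 (AT2G43010) was lower in the 3 pif4 samples than in the 3 wild-type ones at each temperature, with a range of 6.3 to 7.9 FPKM against 8.83 to 10.9 at 22 °C and of 7.84 to 11 against 16.1 to 19.4 at 29 °C. BBX18 (AT2G21320) was at 16.4 to 20.9 FPKM in the double mutant against 27.7 to 30.4 in the wild type at 22 °C, without overlap, and at 7.12 to 51.3 against 9.43 to 64.4 FPKM at 29 °C, with overlap. BBX23 (AT4G10240) was listed at 0 in every sample and checks nothing. In the wild type PIF4 rose with temperature by 0.74 ± 0.13 (adjusted p = 0.00132), while BBX18 stood at 9.43, 64.4 and 29.9 FPKM in replicates 1, 2 and 3 at 29 °C, around its 27.7 to 30.4 at 22 °C (-0.11 ± 0.71, adjusted p = 0.946).

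Genes of roots were measured in these seedling samples. All 12 genes listed for root hairs, endodermis and suberin were tested, and their summed level was 143 to 198 FPKM at 22 °C and 126 to 203 at 29 °C. Of 9 seed storage and oil body genes 8 stayed under the filter, with means of at most 0.27 FPKM, and the exception was the oil body gene OLEO4 (AT3G27660), which fell from 2.92 ± 0.633 to 0.689 ± 0.323 FPKM (adjusted p = 8.03e-04). In such bulk samples, fewer cells of a type and less RNA per cell cannot be told apart.

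Between 22 and 29 °C 2711 genes differed, 14.2% of those tested, with 1077 higher (5.63%) and 1634 lower (8.55%) at 29 °C. The labels give neither hour nor light, so for none of these genes can a difference in them be told apart from temperature. By at least 2-fold, 305 genes rose (1.6%) and 348 fell (1.82%), and by at least 8-fold 17 rose and 8 fell. The median fold change was -0.01 over all genes tested, 0.74 over those that rose and -0.72 over those that fell. All 3 samples at 29 °C lay above all 3 at 22 °C for 1057 of the risen genes, and below for 1604 of the fallen ones. Over all tested genes the same lack of overlap held for 2249 upward (11.8%) and 2826 downward (14.8%), so it accompanied many differences that were not called. The genes of largest fold named below were chosen to show it, so for them it is no separate evidence. With only the 6 wild-type samples in the fit, 491 genes rose and 798 fell. Without replicate 2 at 22 °C 653 rose and 1298 fell, and with size factors 1226 rose and 1495 fell.

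The share of fallen genes was highest among abundant genes. In the highest of 4 equal groups of genes by mean level, with a median of 63.7 FPKM, 15.1% of genes fell and 6.93% rose. In the lowest of them, with a median of 1.78 FPKM, the shares were 5% and 5.09%. Of the genes that fell at least 2-fold, 179 belonged to the highest group and 55 to the lowest, whereas risen genes of that size were spread at 84 and 82.

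**Figure D1:**
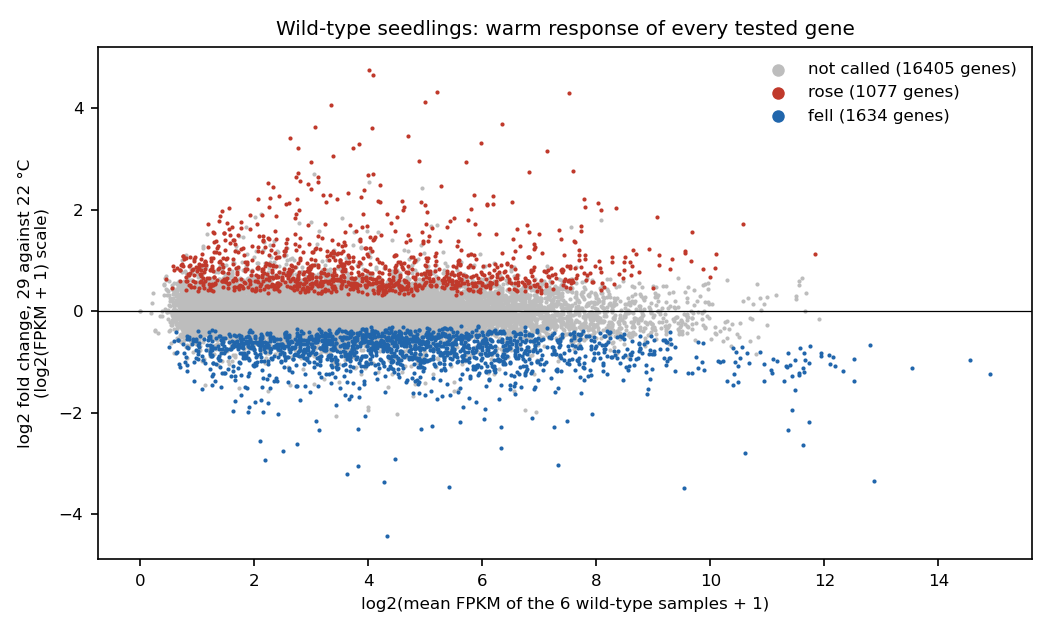
Log2 fold change between 29 and 22 °C in the wild type (y axis, log2(FPKM + 1) scale) against the mean level of the 6 wild-type samples (x axis, log2 scale), 1 point per tested gene. The 1077 risen genes are red, the 1634 fallen genes blue and genes not called grey. Fallen genes reach the right end of the plot, where the most abundant genes lie, and the largest rises are found at low and intermediate levels.

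Small heat shock proteins and other chaperones led the risen genes. The small chaperone HSP17.6A (AT5G12030), a binder of unfolding proteins, was listed at 0, 0.091 and 0.103 FPKM at 22 °C and at 15.6, 45.6 and 29.3 FPKM in replicates 1, 2 and 3 at 29 °C. HSP17.4 (AT3G46230), of the same family, went from 0.301, 0.243 and 0.092 FPKM to 22.4, 50.5 and 22.7 FPKM. These transcripts were near the floor in the cool and present in each warm sample. Their fold changes were 4.75 ± 0.71 (adjusted p = 2.83e-04) and 4.66 ± 0.52 (adjusted p = 1.93e-05).

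The ATP-driven chaperone genes started from a measurable level. HSP90.1 (AT5G52640), the heat-inducible cytosolic HSP90, was at 1.37, 2.28 and 1.74 FPKM at 22 °C and at 24.3, 141 and 45.5 FPKM at 29 °C. HSP70 (AT3G12580), a cytosolic chaperone that holds unfolded chains, stood at 11.2, 9.13 and 10.3 FPKM and rose to 78.9, 833 and 158 FPKM. MBF1C (AT3G24500), a coactivator known to be needed for heat tolerance, was at 6.34, 8.68 and 9.85 FPKM and reached 44.7, 286 and 123 FPKM. For all 3 genes replicate 2 was the highest warm sample by far, and replicate 1 the lowest. Their fold changes were 4.31 ± 0.69, 4.3 ± 0.90 and 3.68 ± 0.75, with adjusted p of 4.65e-04, 0.00404 and 0.00332.

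Among the 15 risen genes of largest fold were a further 5 small heat shock genes. HSP23.6-MITO (AT4G25200), which works in mitochondria, rose by 4.06 ± 0.44 to 12.4, 25.3 and 16.9 FPKM. HSP17.6II (AT5G12020) and AT1G53540, an HSP20-like chaperone, were listed at 0 in all 3 cool samples and stood at 6.26, 30.7 and 7.38 and at 5.81, 15.6 and 9.83 FPKM in the warm. The HSP20-like genes AT1G07400 and AT1G59860 rose by 4.13 ± 1.03 and 3.21 ± 1.03 (adjusted p = 0.0123 and 0.0478), with replicate 2 at 141 and 55.6 FPKM against 13.3 and 3.14 FPKM in replicate 1. HSP17.6II and AT1G07400 lost the call without replicate 2 at 29 °C, with fold changes of 2.96 and 3.18. AT1G59860 lost it in 5 of the 6 fits that left out 1 sample, with values from 2.24 to 4.13. In 12 of the 15 genes replicate 2 was the highest warm sample, against 121 of the 305 genes that rose at least 2-fold.

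Co-chaperones deliver clients to HSP70 and HSP90 and drive their cycles. Of 21 listed co-chaperones and organelle chaperonins 3 rose and 1 fell, with a median of 0.54. Hop3 (AT4G12400), which bridges HSP70 and HSP90, went from 0.991, 1.69 and 0.896 FPKM to 6.38, 21.6 and 14.2 FPKM. HSA32 (AT4G21320), known to prolong acquired heat tolerance, rose by 1.58 ± 0.19 to 17.7, 24.1 and 17.4 FPKM. ROF2 (AT5G48570), a peptidyl-prolyl isomerase that binds HSP90, rose by 2.52 ± 0.68 to 4.76, 22.3 and 10 FPKM. The chloroplast chaperonin gene CPN60B (AT1G55490) fell by 0.66 ± 0.19. The cytosolic co-chaperones HOP1 and CHIP stood at 0.15 and 0.13, with adjusted p of 0.488 and 0.642. The list had 2 calls without replicate 2 at 29 °C. ROF2 also lost its call without replicate 1 or 3 at 22 °C, and CPN60B without replicate 2 at 22 °C or replicate 1 at 29 °C.

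**Figure D2:**
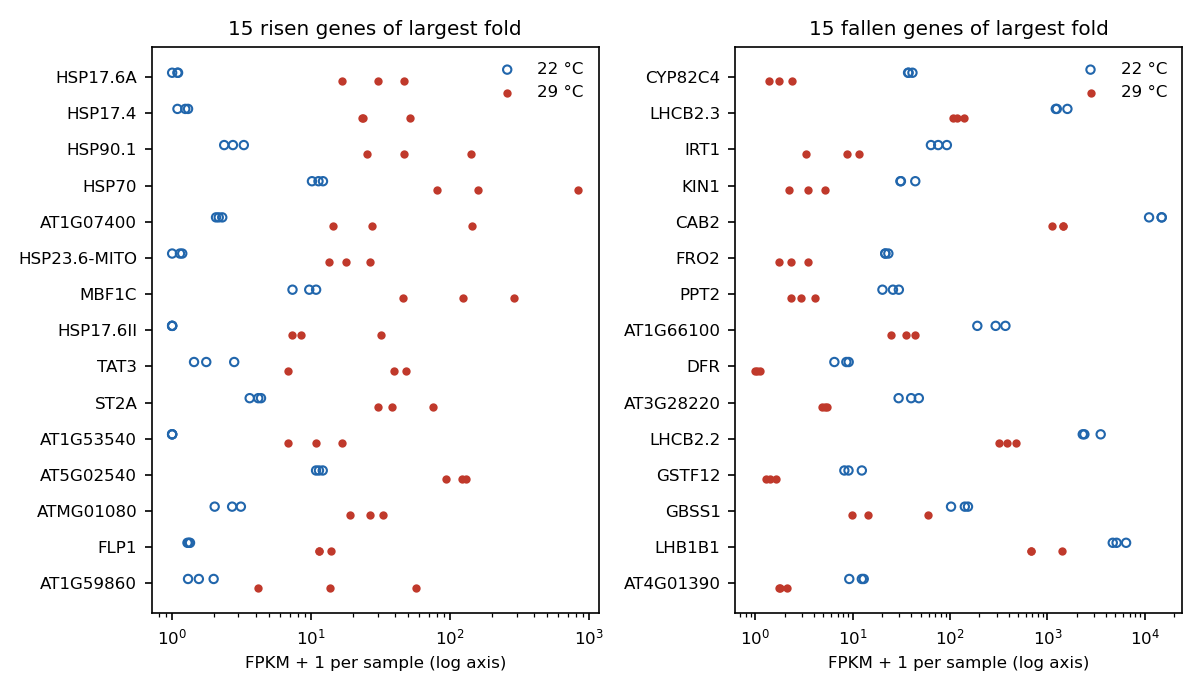
FPKM + 1 in each wild-type sample (log axis) for the 15 risen genes (left) and the 15 fallen genes (right) of largest fold change, with open circles for the 3 samples at 22 °C and filled circles for the 3 at 29 °C. The groups do not overlap for any gene shown, by the rule that chose them, and the warm samples of HSP70, AT1G07400 and AT1G59860 are spread over about 10-fold or more.

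Heat shock elements were looked up in the promoters of the genes that rose, since they are the sequence on which heat shock factors act. The window ran from 250 bases before to 50 bases after the gene start of the RefSeq annotation of TAIR10.1, and the search was for GAA, TTC and GAA, or TTC, GAA and TTC, with 2 bases of any kind between them. On the other strand each order reads as the other. Of 293 promoters of genes that rose at least 2-fold, 11 held the element (3.75%). Among the 348 promoters of genes that fell at least 2-fold 0 held it, and the share over all 18985 tested genes with a promoter was 0.553%. Of the 15 risen genes of largest fold, 14 had a promoter and 4 of these held the element. The elements of the 11 genes are given on the strand of the gene, with 8 flanking bases where the window holds them and the 13 bases of the element in capitals.
HSP17.4, distal: tcaacataGAAGCTTCTTGAAgccacctg
HSP17.4, proximal: agaaacctGAAATTTCAAGAAacttgcag
HSP70: ttactcgtGAACGTTCTCGAAagctcttt
AT1G53540: caacaccaGAAACTTCTTGAAagcacctg
FLP1: tccttttcGAAAATTCTGGAAttctgcat
Hop3: aaaaattcGAAATTTCGAGAActctcttg
SR45a: gtccgactTTCCCGAAGCTTCt
AT1G62510: tgttggaaGAATCTTCTCGAAcccagtct
AT2G15960, distal: aacacgtgGAAAATTCAAGAAggtgaaag
AT2G15960, proximal: tgcatatgGAAAATTCAAGAAggccaaag
DREB2A: cagcgtgtTTCGAGAAGATTCgggaggac
GolS1: gtcccactTTCCAGAACTTTCacggtttc
AT2G04460: tatcttgaGAATATTCTCGAAatatgcca
The shared core follows from the search itself, which left the spacer bases free. HSP17.4 and AT2G15960, annotated as a stress-induced protein, each hold a pair. The 8 bases after the core are nearly the same in HSP17.4 and AT1G53540. A match of letters describes the sequence and says nothing of whether a factor binds there, and the window misses elements farther away. HSP17.6A, HSP90.1 and IRT1 held 0 matches to any of the 8 motifs searched. In HSP90.1 an ATG with an open reading frame precedes the annotated start. That start may thus lie in coding sequence, and the 0 says little of its promoter.

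The whole window is printed for the 2 small chaperone genes of this group and for HSP70, with every motif match in capitals. HSP17.4 is on chromosome 3, minus strand, at chr3:16984818-16985117 of TAIR10.1. Its capitals mark, in order, an I-box, a G-box, the distal heat shock element, an ABRE, the proximal heat shock element and an I-box. The ABRE and the last I-box lie on the other strand. AT1G53540 lies on the plus strand at chr1:19980049-19980348, with a CRT/DRE and then the heat shock element in capitals. HSP70 lies on the minus strand at chr3:3993837-3994136, with the heat shock element at bases 21 to 33 after the start and then a CRT/DRE in capitals.
HSP17.4: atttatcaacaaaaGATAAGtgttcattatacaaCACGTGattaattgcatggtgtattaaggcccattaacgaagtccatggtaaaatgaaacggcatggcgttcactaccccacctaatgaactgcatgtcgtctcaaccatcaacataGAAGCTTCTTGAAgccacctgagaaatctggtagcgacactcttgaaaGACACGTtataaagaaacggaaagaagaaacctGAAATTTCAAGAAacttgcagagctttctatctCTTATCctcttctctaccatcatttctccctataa
AT1G53540: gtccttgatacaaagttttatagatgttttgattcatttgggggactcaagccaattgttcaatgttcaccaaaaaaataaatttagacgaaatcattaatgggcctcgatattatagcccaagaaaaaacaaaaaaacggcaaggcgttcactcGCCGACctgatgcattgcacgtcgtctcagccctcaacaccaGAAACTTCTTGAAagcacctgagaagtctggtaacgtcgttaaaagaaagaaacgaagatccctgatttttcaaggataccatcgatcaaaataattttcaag
HSP70: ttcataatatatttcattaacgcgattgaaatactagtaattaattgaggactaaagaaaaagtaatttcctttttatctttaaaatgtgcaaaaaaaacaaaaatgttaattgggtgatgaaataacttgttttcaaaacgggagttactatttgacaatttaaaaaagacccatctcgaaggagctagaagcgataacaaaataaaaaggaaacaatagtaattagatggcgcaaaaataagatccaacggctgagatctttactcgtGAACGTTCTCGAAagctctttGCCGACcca

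Another 7 motifs were counted in the same windows on both strands. The evening element AAAATATCT, bound by clock factors, stood in 35 of the 293 promoters of risen genes (11.9%), in 3.16% of those of fallen genes and in 2.96% of all. The I-box GATAAG, known from light-regulated genes, stood in 23.0% of promoters of fallen genes, 18.8% of those of risen genes and 14.95% of all. The G-box CACGTG was found in 14.9%, 12.3% and 8.85%. The ABRE, searched as ACGTGTC, which can overlap a G-box, was found in 8.62%, 7.17% and 5% in the same order. Of the other motifs, again in the order fallen, risen and all, CACATG, the PBE box, was in 15.2%, 15.7% and 12.9%, TGTCTC or TGTCGG, the auxin response element, in 18.1%, 14% and 18.4%, and GCCGAC, the CRT/DRE, in 2.59%, 4.1% and 3.72%. These shares are descriptions without a test.

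**Figure D3:**
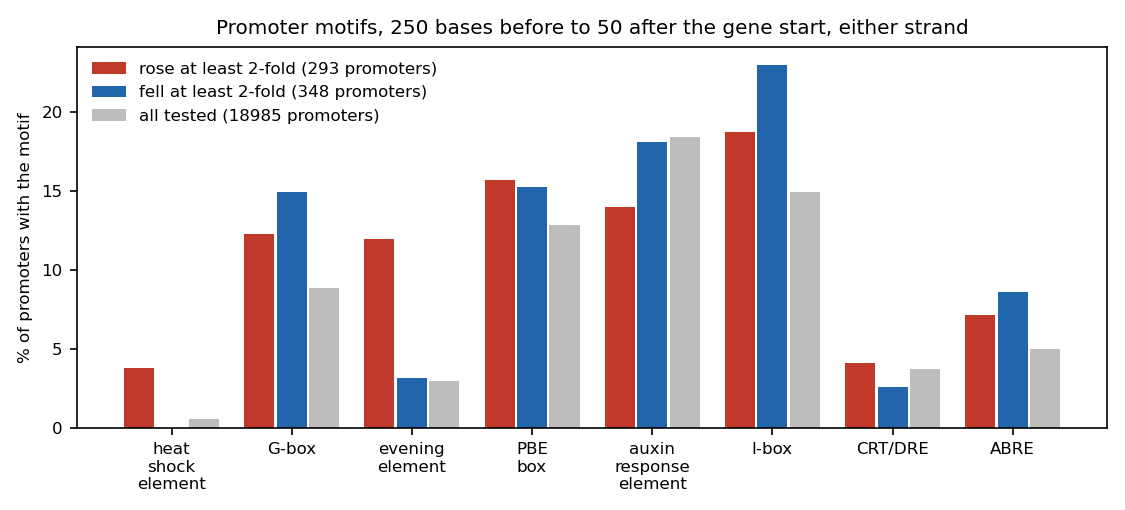
Share of promoters (y axis, percent) that hold each of 8 motifs on either strand, for genes that rose at least 2-fold, genes that fell at least 2-fold and all tested genes. The heat shock element stands at 3.75%, 0% and 0.553%, and the evening element at 11.9%, 3.16% and 2.96%.

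Of the 35 risen genes with an evening element 4 belonged to the listed clock genes. The gene of largest fold among them was CCL (AT3G26740), which encodes a transcript known to be degraded at rates set by the clock. CCL was at 25.6, 24.1 and 28.7 FPKM at 22 °C and at 336, 159 and 264 FPKM at 29 °C, a rise of 3.16 ± 0.29 (adjusted p = 3.51e-06). Its window on the plus strand, chr3:9827432-9827731 of TAIR10.1, holds a PBE box, an I-box on the other strand and the evening element, in capitals in that order. It was printed after its values were seen.
CCL: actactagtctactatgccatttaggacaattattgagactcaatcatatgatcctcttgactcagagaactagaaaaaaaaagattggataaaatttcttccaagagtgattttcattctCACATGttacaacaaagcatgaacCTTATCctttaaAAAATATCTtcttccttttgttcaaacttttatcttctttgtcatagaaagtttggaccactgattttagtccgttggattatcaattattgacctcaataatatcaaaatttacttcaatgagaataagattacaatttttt

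Clock genes themselves rose in 7 and fell in 2 of 15, with a median of 1.08. The evening complex gene BOA (AT5G59570) was at 3.46, 2.84 and 3.15 FPKM at 22 °C and at 20.5, 20.6 and 18.5 FPKM at 29 °C. PCL1 (AT3G46640), also called LUX and a subunit of the same complex, went from 13.7, 8.14 and 10.9 FPKM to 59.4, 71.1 and 62.1 FPKM. PRR5 (AT5G24470), a repressor of the morning genes, went from 0.489, 0.465 and 0.402 FPKM to 3.03, 4.59 and 3.36 FPKM. The cool and warm samples did not overlap for any of the 3, and ELF4, ELF3, TOC1 and PRR3 rose as well. The morning genes LHY and LNK2 fell by 1.35 and 1.49, and CCA1 stood at -0.94 with an adjusted p of 0.0993. The level of these genes follows the hour of the day, and a difference in hour between the groups cannot be told apart from temperature here.

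Genes without a heat shock annotation were also among the largest rises. ST2A (AT5G07010), a sulfotransferase that acts on hydroxyjasmonates, went from 3.16, 2.61 and 3.35 FPKM to 73.8, 29.0 and 37.0 FPKM. AT5G02540, annotated as an NAD(P)-binding Rossmann-fold protein, was at 9.84, 11.1 and 10.4 FPKM and reached 121, 91.6 and 129 FPKM. FLP1 (AT4G31380), a small protein similar to flower promoting factor 1, was at 0.289, 0.344 and 0.322 FPKM and reached 12.9, 10.4 and 10.5 FPKM. Replicate 2 was the lowest warm sample for all 3 genes, and all warm samples lay above the cool ones. Their fold changes were 3.45 ± 0.29, 3.32 ± 0.24 and 3.21 ± 0.18, with adjusted p of 1.35e-06, 2.41e-07 and 1.67e-08. TAT3 (AT2G24850), a jasmonate-responsive tyrosine aminotransferase, rose by 3.61 ± 0.79 to 38.6, 47.3 and 5.75 FPKM, above the 0.437 to 1.79 FPKM of the cool samples.

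Iron uptake, antenna and anthocyanin genes supplied most of the largest falls. CYP82C4 (AT4G31940), a cytochrome P450 of the iron deficiency response, was at 40.0, 36.5 and 36 FPKM at 22 °C and at 0.746, 1.39 and 0.386 FPKM at 29 °C. The root iron transporter gene IRT1 (AT4G19690) went from 91.6, 74.5 and 62.5 FPKM to 7.67, 10.6 and 2.29 FPKM. FRO2 (AT1G01580), the ferric reductase of the root surface, went from 22.2, 20.6 and 20.6 FPKM to 1.31, 2.44 and 0.739 FPKM. Replicate 3 was the lowest and replicate 2 the highest warm sample in each, and all lay far below the cool samples. The fold changes were -4.42 ± 0.27, -3.47 ± 0.47 and -3.20 ± 0.31, with adjusted p of 4.41e-08, 1.33e-04 and 4.82e-06. Of the 12 root markers 3 fell (25%, against 8.55% of all genes) and 0 rose, with a median of -0.16. The suberin genes CYP86A1 and CYP86B1 fell by 1.24 and 0.61 and the root factor gene MYB93 by 0.82, and their part in the falls of iron genes was not tested. Without replicate 2 at 22 °C 1 of the 12 root markers was called. MYB93 also lost its call without replicate 2 at 29 °C, and CYP86B1 in every fit that left out a sample but that one.

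The antenna gene LHCB2.3 (AT3G27690), which encodes a chlorophyll-binding protein of photosystem II, was at 1602, 1246 and 1217 FPKM at 22 °C and at 137.5, 118 and 107 FPKM at 29 °C. CAB2 (AT1G29920), also called LHCB1.1, went from 14900, 11060 and 14910 FPKM to 1450, 1447 and 1112 FPKM. LHCB2.2 (AT2G05070) went from 3521, 2304 and 2394 FPKM to 383, 477 and 314 FPKM. The cool and warm samples of each were separated by several-fold. The fold changes were -3.47 ± 0.16, -3.35 ± 0.26 and -2.80 ± 0.27 (adjusted p = 6.77e-09, 7.77e-07 and 5.27e-06). CAB2 and LHCB2.2 share at least 90% of their sequence with other antenna genes, so reads may be split among them, while LHCB2.3 had 0 such copies. The window of LHCB2.3 on the plus strand, chr3:10255656-10255955 of TAIR10.1, is shown because it had the largest fall among antenna genes. Its capitals mark a G-box and an ABRE.
LHCB2.3: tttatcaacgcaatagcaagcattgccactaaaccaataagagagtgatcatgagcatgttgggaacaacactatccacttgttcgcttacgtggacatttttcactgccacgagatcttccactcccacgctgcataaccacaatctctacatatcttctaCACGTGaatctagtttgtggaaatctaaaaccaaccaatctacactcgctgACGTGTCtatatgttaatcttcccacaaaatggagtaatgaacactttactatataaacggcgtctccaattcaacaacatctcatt

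Other large falls touched pigment, cold and carbon genes. DFR (AT5G42800), an enzyme of anthocyanin synthesis, went from 5.47, 7.59 and 8.08 FPKM to 0.031, 0 and 0.118 FPKM. GSTF12 (AT5G17220), needed to carry anthocyanins into the vacuole, went from 8.04, 7.19 and 11.4 FPKM to 0.276, 0.643 and 0.412 FPKM. The cold-induced gene KIN1 (AT5G15960) went from 29.9, 30.2 and 42.9 FPKM to 2.43, 4.19 and 1.21 FPKM. These 3 transcripts were lower in each warm sample, as the rule that chose them required. Their fold changes were -2.92 ± 0.15, -2.76 ± 0.18 and -3.36 ± 0.30 (adjusted p = 1.14e-08, 9.49e-08 and 2.87e-06). PPT2 (AT3G01550), a plastid translocator of phosphoenolpyruvate, fell by 3.04 ± 0.25, and the thionin gene AT1G66100 by 3.03 ± 0.28. The TRAF-like genes AT3G28220 and AT4G01390 fell by 2.90 ± 0.23 and 2.61 ± 0.19. KIN1 and CYP82C4 have close copies of at least 90% identity, which makes their separate values uncertain.

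A few genes crossed from near 0 to a clear level. Under 0.5 FPKM in all 3 cool samples and at 2 FPKM or more in all 3 warm ones were 16 genes, and the reverse held for 4. The same values chose these genes and give their fold changes, so their calls are no separate evidence. Beside the small heat shock genes and FLP1, the 16 included TIN1 (AT5G64510), an endoplasmic reticulum stress gene that went from 0.212 to 0.276 FPKM up to 2.04, 12.8 and 3.48 FPKM, and AT5G23240, a protein with a DnaJ domain at 2.83, 2.38 and 2.68 FPKM in the warm. The 4 genes lost were DFR, LDOX (AT4G22880), the next enzyme of the same pathway, EXPA17 (AT4G01630), an expansin, and the receptor-like kinase AT1G29720. LDOX went from 5.72, 6.75 and 6.46 FPKM to 0.194, 0.331 and 0.227 FPKM, and EXPA17 from 2.69, 3.46 and 5.70 FPKM to 0.215, 0.389 and 0.118 FPKM. TIN1, AT5G23240 and the receptor-like kinase are named for this criterion. Without replicate 1 or without replicate 2 at 29 °C, 8 genes met the criterion for loss.

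Mitochondrial transcripts were among the low genes that rose. ATMG01080, a locus of the mitochondrial genome, went from 2.12, 1.70 and 1.02 FPKM to 25.3, 31.6 and 18.1 FPKM, a rise of 3.30 ± 0.20 (adjusted p = 4.90e-08). Of 146 mitochondrial loci deposited, 25 were tested, of which 14 rose and 0 fell. Since 3 of the 25 reached 1 FPKM in all 3 cool samples, most passed the filter through other samples, and a rise in such loci is favoured by the filter itself. Over all 146 loci the summed level was 43.7, 25.7 and 40.0 FPKM at 22 °C and 118, 130 and 78.0 FPKM at 29 °C, with no overlap. This was 0.00343% ± 5.23e-04 of the summed FPKM in the cool and 0.0126% ± 0.00218 in the warm (SD, n = 3). The nuclear locus AT2G07707 had the same value as ATMG00480 in every wild-type sample, so reads of mitochondrial sequence and of its nuclear copy on chromosome 2 were not separated. Of 40 tested chloroplast loci 2 rose and 1 fell.

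Abundant transcripts led the rises when ranked by the difference in FPKM. TCTP (AT3G16640), a conserved growth regulator, was at 2638, 1704 and 2597 FPKM at 22 °C and at 5677, 5395 and 3974 FPKM at 29 °C. GASA1 (AT1G75750), a small gibberellin-regulated peptide, went from 769.8, 597 and 759 FPKM to 2281, 2615 and 2060 FPKM. GRP7 (AT2G21660), a clock-controlled RNA-binding protein, went from 241.5, 179 and 273 FPKM to 981, 798 and 734 FPKM. The groups did not overlap for any of these, and the rises were 1.13 ± 0.23, 1.71 ± 0.18 and 1.86 ± 0.22 (adjusted p = 0.00293, 9.66e-06 and 2.86e-05). The metallothionein gene MT2A (AT3G09390), the catalase gene CAT3 (AT1G20620), the GTPase gene ARFA1E (AT3G62290) and the germin-like gene GER3 (AT5G20630) rose by 1.56, 1.15, 1.13 and 1.19. UBQ3 (AT5G03240), a polyubiquitin gene with a close copy, rose by 0.85 ± 0.20 (adjusted p = 0.0103), a call that was lost without replicate 2 at 22 °C or replicate 1 at 29 °C.

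The largest losses in FPKM all came from light harvesting and Rubisco. CAB1 (AT1G29930), an antenna gene and the most abundant transcript of this set, went from 47650, 35000 and 44620 FPKM to 26050, 16510 and 13210 FPKM. RBCS3B (AT5G38410), a small subunit of Rubisco, went from 20820, 12540 and 15300 FPKM to 9144, 8086 and 5311 FPKM. RCA (AT2G39730), the activase that keeps Rubisco active, went from 8951, 6610 and 5825 FPKM to 3258, 3767 and 2479 FPKM. In each gene the warm samples lay below all cool ones, with falls of 1.24 ± 0.24, 1.12 ± 0.25 and 1.17 ± 0.24 (adjusted p = 0.00217, 0.0072 and 0.00312). The calls of CAB1 and RBCS3B were lost without the filter, under quantile normalization and in the wild-type fit. RBCS1A (AT1G67090) fell by 0.96 ± 0.25 (adjusted p = 0.0146), but lost the call without replicate 1 at 22 °C, without replicate 3 at 29 °C, without the filter and in the wild-type fit, and stood at 0.15 under quantile normalization. RBCS1B (AT5G38430) fell by 0.93 ± 0.28 (adjusted p = 0.038), a call lost in 4 of the 6 fits that left out a sample (without replicates 1 or 3 at either temperature).

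Genes were then grouped into 30 lists by role, of which 441 distinct loci were tested, and the share called in each is read against 5.63% risen and 8.55% fallen among all genes and a median of -0.01. Subunits and antenna proteins of the photosystems outside LHCB1 to LHCB3 fell in 32 of 33, with a median of -1.03. The count was 26 without replicate 1 at 22 °C and 24 with the wild-type samples alone. PSAH2 (AT1G52230), a subunit at the edge of photosystem I, was at 2217, 1949 and 2059 FPKM at 22 °C and at 806, 778 and 789 FPKM at 29 °C. PSAK (AT1G30380) fell by 1.37 ± 0.15, LHCA4 (AT3G47470) by 1.27 ± 0.15 and LHCB6 (AT1G15820) by 1.54 ± 0.21, and only LHCB4.3 missed the threshold (-0.93, adjusted p = 0.0668). Enzymes and regulators of the Calvin cycle fell in 15 of 19, with a median of -0.90, in 9 without replicate 1 at 22 °C and in 6 with the wild-type samples alone. The sugar phosphatase gene SBPASE (AT3G55800) went from 705, 654 and 598 FPKM to 271, 302 and 280.1 FPKM (-1.19 ± 0.14). GAPA-2 (AT1G12900), a subunit of the chloroplast glyceraldehyde phosphate dehydrogenase, fell by 1.44 ± 0.15. The regulators CP12-1, CP12-2 and CP12-3, which hold Calvin cycle enzymes inactive in the dark, stood at 0.24, -0.40 and -0.13 with adjusted p of 0.507, 0.242 and 0.828.

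Together these 52 genes held 21.2%, 18.4% and 17.5% of the summed FPKM in the cool samples and 12.8%, 12.2% and 10.7% in the warm ones. The photosystem list alone went from 10.4% ± 0.723 to 6.29% ± 0.392 and the Calvin list from 8.69% ± 1.23 to 5.61% ± 0.724 (SD, n = 3). The Calvin share changed by -3.08 percentage points, and by -1.03 with the 10 most abundant genes left out of the sum, so a few genes carried most of it. An exact 2-sided permutation test of each share gave p = 0.1 (0.158 after adjustment over 30 lists), the smallest value that 3 against 3 samples allow. Since FPKM are relative to the library, a smaller share of these genes leaves a larger one for others. The aquaporin list, for example, went from 1.40% ± 0.157 to 1.85% ± 0.14 of the sum, while 0 of its 18 genes rose, 1 fell and its median was -0.12.

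**Figure D4:**
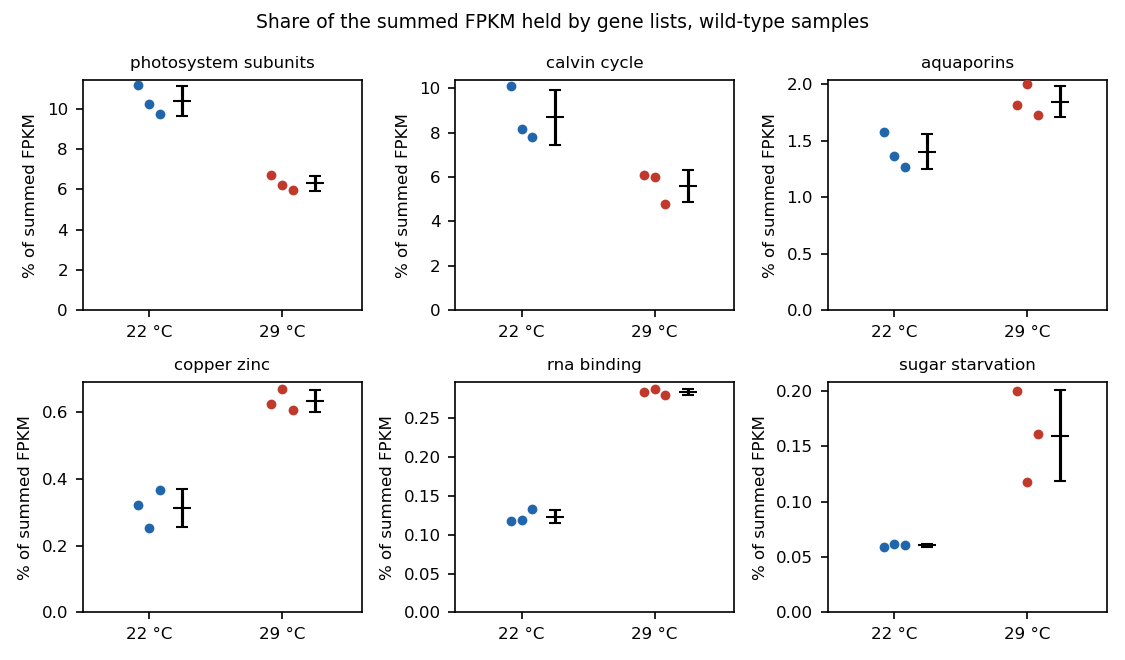
Share of the summed FPKM (y axis, percent, from 0) held by 6 gene lists in each wild-type sample, with the mean and SD of the 3 samples at each temperature beside the points. Photosystem and Calvin cycle genes drop to 6.29% and 5.61%, and RNA-binding genes go from 0.123% to 0.284%. Copper and zinc genes go from 0.312% to 0.631%, although only 1 of the 13 tested rose and their median fold change was 0.03. The groups do not overlap in any panel. Such separation also occurred in lists without calls. The cellulose list, with 0 genes called, went from 0.0695% ± 0.00795 to 0.0926% ± 0.00194 without overlap. Its summed FPKM did overlap, at 662.7 to 826.7 in the cool and 692.9 to 851.5 in the warm. Other lists, such as photorespiration, overlapped in their shares.

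Photorespiration recycles the product of Rubisco's reaction with oxygen. Of 10 photorespiration genes 3 fell and 0 rose: the glycine decarboxylase gene GLDP2 (AT2G26080) by 1.61 ± 0.24, the phosphoglycolate phosphatase gene PGLP1 (AT5G36700), which has a copy of 98.5% identity, by 1.17 ± 0.11 and the serine hydroxymethyltransferase gene SHM1 (AT4G37930) by 1.05 ± 0.15. The glycolate oxidase genes GOX1 and GOX2 stood at 0.28 and -0.29 (adjusted p = 0.328 and 0.254). Of 22 genes of photoprotection and carotenoid synthesis 11 fell and 0 rose, with a median of -0.52, and 6 fell in the wild-type fit. PSY (AT5G17230), which makes the first carotenoid, went from 191, 191 and 166 FPKM to 73.3, 84.3 and 86.7 FPKM. PGRL1A (AT4G22890), a protein of cyclic electron flow, fell by 1.28 ± 0.11, and STN7 (AT1G68830), the kinase that moves antennae between photosystems, by 0.91 ± 0.15. The light stress genes ELIP1 and ELIP2 had fold changes of -0.29 and -1.88 and adjusted p of 0.912 and 0.103. AT2G41250, a hydrolase of the haloacid dehalogenase class, and CH1 (AT1G44446), the chlorophyll b enzyme also called CAO, were among the 10 genes of smallest p. They went from 99.6, 114 and 102 FPKM to 23.3, 22.7 and 24.5 FPKM, and from 187, 206 and 176 FPKM to 43.7, 45.1 and 42.0 FPKM.

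**Figure D5:**
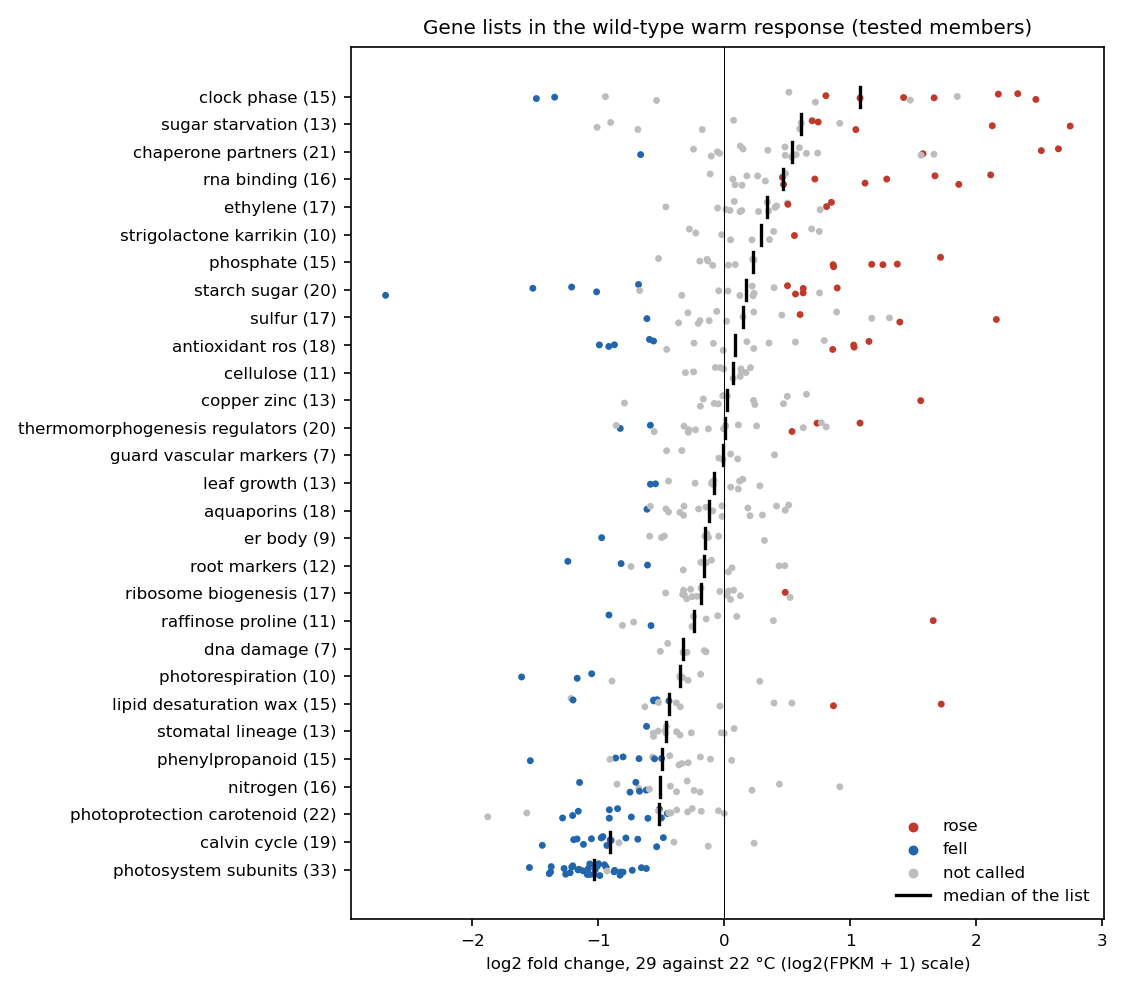
Log2 fold change between 29 and 22 °C (x axis, log2(FPKM + 1) scale) of every tested member of 29 gene lists, ordered by median, with the number of tested members in brackets. Points are red where the gene rose, blue where it fell and grey where it was not called, and the black line is the median, from -1.03 for photosystem subunits to 1.08 for clock genes. Seed markers, with 1 tested member, are left out.

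Nutrient genes went in different directions. Genes of nitrogen uptake and assimilation fell in 5 of 16, with 0 risen and a median of -0.51. ASN2 (AT5G65010), an asparagine synthetase, went from 359, 295 and 319 FPKM to 137, 141 and 159 FPKM, and GS2 (AT5G35630), the chloroplast glutamine synthetase, fell by 0.70 ± 0.14, a call lost under quantile normalization and in the wild-type fit. The nitrate transport partner NRT3.1 (AT5G50200) fell by 0.62 ± 0.18 and the nitrogen-responsive factor LBD38 (AT3G49940) by 0.75 ± 0.23, and both lost the call without replicate 1 or 3 at 22 °C or replicate 3 at 29 °C, LBD38 also without replicate 2 at 29 °C. The count for the list was 2 without replicate 1 at 22 °C or replicate 3 at 29 °C, 3 without replicate 3 at 22 °C or replicate 2 at 29 °C, and 1 in the wild-type fit.

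Of 15 genes of phosphate uptake and of the response to phosphate starvation 6 rose and 0 fell, with a median of 0.23. SPX3 (AT2G45130), a phosphate sensor protein, went from 0.376, 0.121 and 0.528 FPKM to 1.65, 2.74 and 2.29 FPKM. SPX1 (AT5G20150) went from 2.2, 4.11 and 3.95 FPKM to 9.52, 15.1 and 16 FPKM. The warm samples exceeded all cool ones in both, with rises of 1.26 ± 0.18 and 1.72 ± 0.31 (adjusted p = 2.37e-04 and 0.00142). The phosphatase genes PS2 (AT1G73010) and PAP17 rose by 1.17 ± 0.28 and 1.37, PECP1 by 0.87, and the galactolipid synthase gene MGDC (AT2G11810), also called MGD3, by 0.87 ± 0.14. Transporters did not follow, with PHT1;1 at 0.09, PHT1;4 at 0.03 and PHO1 at 0.23 (adjusted p = 0.883, 0.936 and 0.312). The list had 3 calls without replicate 2 at 22 °C, where PS2 was among those lost.

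Of 17 sulfur genes 3 rose and 1 fell. LSU1 (AT3G49580), a small protein induced by low sulfur, went from 4.73, 4.54 and 7.5 FPKM to 33.4, 37.0 and 17.4 FPKM, a rise of 2.16 ± 0.33 (adjusted p = 3.85e-04). BGLU28 (AT2G44460) and SULTR1;1 (AT4G08620), both known from sulfur deficiency, rose by 1.40 ± 0.35 and 0.60 ± 0.18, and APK (AT2G14750), which activates sulfate, fell by 0.61 ± 0.19. All 3 of these calls were lost without replicate 2 at 22 °C. BGLU28 also lost it without replicate 1 at 29 °C, SULTR1;1 in every fit that left out a sample but that without replicate 1 at 29 °C, and APK without replicate 3 at 22 °C or replicate 1 or 3 at 29 °C. The reductases APR1 and APR2 stood at -0.06 and -0.20 (adjusted p = 0.918 and 0.794). Among 13 copper and zinc genes MT2A alone rose and 0 fell, and the superoxide dismutase gene FSD1, at 2469 and 3791 FPKM, stood at 0.65 with an adjusted p of 0.0799.

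Starch is made in chloroplasts by day and broken down at night. Of 20 genes of starch metabolism and sugar transport 5 rose and 5 fell. The risen were 3 without replicate 2 at 22 °C and the fallen 3 without replicate 1 at 22 °C or replicate 3 at 29 °C, and the wild-type fit called 2 and 3. The synthesis genes ADG1 (AT5G48300) and APL1 (AT5G19220), subunits of the enzyme that makes the starch precursor, fell by 1.21 ± 0.10 and 1.01 ± 0.23, and SS1, a starch synthase, by 0.68. ADG1 was at 167, 154.5 and 158 FPKM at 22 °C and at 66.7, 72.4 and 66.5 FPKM at 29 °C. GBSS1 (AT1G32900), the amylose synthase, was at 152, 141 and 101 FPKM and fell to 8.77, 58.2 and 13.3 FPKM. Its fall of 2.69 ± 0.73 (adjusted p = 0.02) was lost in 4 of the 6 fits that left out a sample, those without replicate 1 or 2 at 22 °C or replicate 1 or 3 at 29 °C. Of the degradation genes DPE1 (AT5G64860), PWD and AMY3 rose by 0.63 ± 0.11, 0.57 and 0.50, BMY3 (AT5G18670) fell by 1.52 ± 0.33, and SEX1, SEX4 and DPE2 stood at 0.22, 0.03 and 0.12 with adjusted p of 0.552, 0.95 and 0.633. The sugar transporter genes SWEET11 and STP1 rose by 0.63 and 0.90.

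Genes known to rise when sugar runs short were higher in 5 of 13, with 0 lower and a median of 0.61. SEN1 (AT4G35770), induced by darkness and starvation, was at 23.3, 26.8 and 33.8 FPKM at 22 °C and at 201, 148 and 234.5 FPKM at 29 °C. AT2G33830, the dormancy-associated gene DRM2, went from 115, 67.8 and 103 FPKM to 592, 311 and 372.5 FPKM. In both genes each warm sample was several-fold above the cool ones, with rises of 2.75 ± 0.26 and 2.13 ± 0.30 (adjusted p = 3.54e-06 and 1.97e-04). DIN4 (AT3G13450), for the breakdown of branched-chain amino acids, rose by 0.75 ± 0.12, EXL4 by 0.70 and the galactosidase gene BGAL4 (AT5G56870) by 1.05 ± 0.26. The trehalose phosphate synthase genes TPS8, TPS9 and TPS11, which are in the same list, stood at -1.01, -0.90 and -0.68 with adjusted p of 0.4, 0.241 and 0.408. The list had 3 calls without replicate 2 at 22 °C or replicate 1 at 29 °C, and BGAL4 lost its call in both. Its share of the summed FPKM went from 0.0606% ± 0.0013 to 0.16% ± 0.0413 (SD, n = 3).

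Membrane lipid genes were called in both directions. Of 15 genes 2 rose and 5 fell. The desaturase genes FAD3, FAD5, FAD6, FAD7 and FAD8, whose products add double bonds that keep membranes fluid in the cold, fell by 0.56, 0.53, 0.44, 0.56 and 1.20. FAD8 (AT5G05580), known as the cold-induced form, went from 30.4, 31.4 and 26.5 FPKM to 10.8, 14.5 and 11.7 FPKM. FAD2 and FAD4 stood at 0.54 and -1.22 with adjusted p of 0.1 and 0.152. The desaturase genes ADS1 (AT1G06080) and ADS2 (AT2G31360) rose, ADS1 from 17.3, 14.5 and 10.6 FPKM to 45.1, 47.3 and 52.1 FPKM (1.72 ± 0.22, adjusted p = 5.60e-05) and ADS2 by 0.87 ± 0.19. The wax genes CER1, CER3 and CER4 were at -0.63, -0.03 and -0.52 (adjusted p = 0.189, 0.918 and 0.102). The fallen were 2 without replicate 1 at 22 °C, replicate 2 at 29 °C or replicate 3 at 29 °C, and 1 in the wild-type fit.

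Genes of the removal of hydrogen peroxide were called in both directions. Of 18 genes 4 rose and 5 fell. CAT3 and CAT1 (AT1G20630), catalases of peroxisomes, rose by 1.15 ± 0.19 and 0.86 ± 0.11, and CAT2 stood at -0.46 (adjusted p = 0.294). CAT3 was at 499.5, 375 and 513 FPKM at 22 °C and at 1241, 1095 and 775 FPKM at 29 °C. The chloroplast ascorbate peroxidases TAPX (AT1G77490) and SAPX fell by 0.87 ± 0.13 and 0.59, and the glutathione reductases GR (AT3G54660), of organelles, and GR1 (AT3G24170), of the cytosol, fell by 0.99 ± 0.14 and 0.92 ± 0.13. APX2, a heat-induced cytosolic peroxidase, rose from 0.079 to 1.31 FPKM (adjusted p = 0.026), and the zinc finger gene ZAT12 rose by 1.03. The fallen were 3 in the wild-type fit and without replicate 1 or 3 at either temperature.

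Genes of RNA-binding proteins rose in 8 of 16, with 0 lower and a median of 0.47, and in 5 in the wild-type fit. GRP7 has its values above, and its close relative CCR1 (AT4G39260), also called GRP8, went from 102, 83.0 and 118 FPKM to 317, 365 and 288 FPKM. The splicing factor genes SCL33 (AT1G55310) and SR30 (AT1G09140) went from 27.9, 23.4 and 27.3 FPKM to 65.2, 73.3 and 58.4 FPKM, and from 28.4, 35.5 and 34.2 FPKM to 62.2, 82.8 and 72.3 FPKM. No warm sample overlapped a cool one in any of the 3, and the rises were 1.67 ± 0.20, 1.29 ± 0.16 and 1.12 ± 0.16 (adjusted p = 3.05e-05, 4.05e-05 and 2.46e-04). SR45a, RS40 and RS41 rose by 2.12, 0.72 and 0.46, and the methyltransferase gene PRMT5 by 0.47. The cold shock domain genes CSP1, CSP3 and GRP2, known from acclimation to cold, stood at 0.09, 0.27 and -0.11 (adjusted p = 0.852, 0.397 and 0.804). GRP7, CCR1 and SR45a hold an evening element or a heat shock element in the promoter window. The share of the list in the summed FPKM was 0.123% ± 0.00846 in the cool and 0.284% ± 0.00372 in the warm (SD, n = 3).

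Stress sugars and amino acids followed no common direction. The galactinol synthase genes GolS1 (AT2G47180), known as heat-induced, and GolS3 (AT1G09350), known as cold-induced, rose by 1.66 ± 0.47 and fell by 0.58 ± 0.14. GolS1 was at 20.9, 13.2 and 18.6 FPKM at 22 °C and at 38.2, 107.5 and 44.2 FPKM at 29 °C, and lost its call without replicate 2 or 3 at 22 °C or replicate 2 at 29 °C. The proline synthesis gene P5CS2 (AT3G55610) fell by 0.91 ± 0.14, and P5CS1 was at -0.24 (adjusted p = 0.507). In all, 1 of 11 such genes rose and 2 fell, and 2 were called without replicate 2 at 22 °C.

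Phenylpropanoid enzymes, which feed lignin, sinapate and flavonoids, fell in 6 of 15, with 0 higher and a median of -0.50. PAL2 (AT3G53260), the entry enzyme, went from 137, 142 and 119 FPKM to 47.6, 50 and 38.0 FPKM, a fall of 1.54 ± 0.13 (adjusted p = 1.51e-06). PAL1 (AT2G37040), PAL3 (AT5G04230) and the methyltransferase gene OMT1 (AT5G54160) fell by 0.80 ± 0.15, 0.86 ± 0.19 and 0.68 ± 0.11. Among the listed enzymes that did not pass the test were C4H at -0.19, HCT at -0.28 and CAD5 at 0.06 (adjusted p = 0.543, 0.431 and 0.889).

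Ethylene genes rose in 3 of 17, with 0 lower. The ethylene-forming enzyme gene EFE (AT1G05010) was at 260.3, 226 and 293 FPKM at 22 °C and at 449.7, 478.5 and 437 FPKM at 29 °C (0.81 ± 0.15, adjusted p = 0.00176). The receptor gene ETR2 (AT3G23150) and the kinase gene CTR1 (AT5G03730), both of which hold the pathway off, rose by 0.85 ± 0.19 and 0.51 ± 0.12. Of 10 strigolactone and karrikin genes SMXL2 (AT4G30350), a repressor of karrikin signalling, rose by 0.56 ± 0.12 and 0 fell.

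Several lists had 0 to 2 calls. Among 11 cellulose synthase genes and partners 0 rose and 0 fell in limma, with fold changes between -0.31 and 0.21. Among 7 tested genes of the DNA damage response 0 were called, with values from -0.51 to -0.14. Of 17 nucleolar and ribosomal protein genes NUC-L1 (AT1G48920) rose by 0.49 ± 0.12 and 0 fell, of 9 genes of ER bodies the glucosidase gene BGLU21 (AT1G66270) fell by 0.97 ± 0.18, and of 13 stomatal genes SDD1 (AT1G04110) fell by 0.62 ± 0.16. NUC-L1 and SDD1 lost their calls without replicate 1 at 29 °C, NUC-L1 also without replicate 2 at 22 °C, and SDD1 also without replicate 3 at either temperature. Of 18 aquaporins PIP1A (AT3G61430) fell by 0.61 ± 0.20 (adjusted p = 0.0477), a call lost in 5 of 6 fits that left out a sample, all but that without replicate 2 at 29 °C. The organ growth genes ANT (AT4G37750) and KNAT1 (AT4G08150) fell by 0.58 ± 0.16 and 0.54 ± 0.17 and lost their calls without replicate 2 or 3 at 22 °C or replicate 1 or 3 at 29 °C, while 0 of 13 in that list rose. Guard cell and vascular markers had 0 calls among 7, with fold changes from -0.46 to 0.40.

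Regulators known from growth in the warm rose in 3 and fell in 2 of 20, with a median of 0.00. Beside PIF4, ELF3 (AT2G25930), a thermosensor protein of the evening complex, went from 6.77, 8.37 and 7.03 FPKM to 18.6, 12.4 and 20.0 FPKM (1.08 ± 0.23, adjusted p = 0.00434). The RNA-binding regulator FCA (AT4G16280) rose by 0.54 ± 0.13. HTA8 and HTA11 (AT3G54560), which encode the histone variant H2A.Z, fell by 0.59 and 0.82 ± 0.22, and both lost the call in the wild-type fit, without replicate 3 at 22 °C and without replicate 2 or 3 at 29 °C. The photoreceptor and its partners did not pass the test, with PHYB at 0.01, COP1 at -0.28, DET1 at 0.01 and PIF7 at -0.28 (adjusted p = 0.969, 0.419, 0.971 and 0.669). HY5 averaged 25.7 FPKM in the cool and 52.5 FPKM in the warm (0.81, adjusted p = 0.391).

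Gene families were counted by the start of the gene symbol or of a synonym in RefSeq, a grouping added after first results were seen. Their counts are read against 5.63% risen and 8.55% fallen among all genes. Of 42 tested ERF and AP2 factors 8 rose (19.0%) and 1 fell (2.38%). DREB2A (AT5G05410), a factor of heat and drought responses, rose by 1.77 ± 0.39, from 0.473 ± 0.0457 to 4.29 ± 1.96 FPKM (SD, n = 3). EBP (AT3G16770) rose from 297 ± 80.3 to 676 ± 38.5 FPKM. Of 15 heat shock factors HSFA3 (AT5G03720), HSFA8 (AT1G67970) and HSFB2A (AT5G62020) rose, by 1.89 ± 0.12, 1.41 ± 0.15 and 1.25 ± 0.40, and 0 fell. HSFA3 was at 1.13, 1.15 and 1.41 FPKM at 22 °C and at 7.40, 6.92 and 7.40 FPKM at 29 °C, with no raised value in replicate 2. Of 52 WRKY factors WRKY45 (AT3G01970) alone rose, by 1.59 ± 0.38, and 0 fell, and of 65 MYB factors 0 rose and 6 fell (9.23%, near the 8.55% of all genes), among them MYB28 (AT5G61420), a regulator of glucosinolate synthesis, by 0.83 ± 0.12.

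Enzyme families divided as well. Of 148 cytochromes P450 16 rose (10.8%) and 20 fell (13.5%), against 5.63% and 8.55% of all genes. They ran from CYP71B19 (AT3G26170), which went from 0.792 ± 0.23 to 10.9 ± 1.01 FPKM (2.73 ± 0.18), to CYP82C4. Glutathione transferases fell in 9 of 44 (20.4%) and rose in 2, with GSTU20 (AT1G78370) lower by 2.03 ± 0.19, from 389 ± 103 to 92.9 ± 7.82 FPKM. ABC transporters fell in 13 of 88 (14.8%) and 0 rose, with ABCF5 (AT5G64840) lower by 1.41 ± 0.26. Among 53 expansins and xyloglucan endotransglucosylases, proteins that act on the cell wall, 13 rose (24.5%) and 7 fell (13.2%). The 13 include PNP-A (AT2G18660), a natriuretic peptide gene that RefSeq also lists as EXLB3. EXLA1 (AT3G45970) rose by 1.47 ± 0.16 and XTH15 (AT4G14130) by 2.01 ± 0.25, while EXPA1 (AT1G69530) fell from 494 ± 91.9 to 274 ± 52.7 FPKM (adjusted p = 0.0208) and EXPB3 (AT4G28250) fell by 0.98 ± 0.21.

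The warm response of the wild type was set beside that of the mutants with the test of the difference itself. The 2 mutant contrasts share the wild-type samples. For bbx18 bbx23, 0 of 19116 genes differed in limma (0%), with 133 at an unadjusted p under 0.05. For pif4 3 genes differed (0.0157%), with 248 at an unadjusted p under 0.05. If no gene differed, a calibrated test would put a share of 0.05 of the genes under that p, and both counts are far lower. The p-values of these contrasts are thus not calibrated, for a reason that was not tested. The counts of calls are a poor guide. Of the 15 risen and 15 fallen genes of largest fold, 14 and 15 were called in the same direction in bbx18 bbx23, and 14 and 15 in pif4. The same direction, called or not, was found for 2702 of all 2711 wild-type calls in bbx18 bbx23 and 2693 in pif4. Agreement in direction was thus not particular to the genes of largest fold. The share over all tested genes is not given, so these counts have no base to be read against. Whether same-numbered samples of the genotypes deviate together was not tested over all genes, so the mutants are no independent check. HSP17.6A rose by 4.48 and 5.11 in the 2 mutants, IRT1 fell by 3.24 and 3.25, and CAB2 by 3.35 and 3.53. A difference that missed the threshold does not show that the genotypes responded alike. In simulated data of this design genes changed by 0.5 log2 were recovered in 9% of cases even in the simpler warm contrast. That simulation gave each gene the same spread in all groups, so the share is only a rough guide.

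The 3 genes that differed had smaller rises, or no rise, in pif4. ST2A went from 4.09, 2.56 and 4.24 FPKM to 7.79, 7 and 5.43 FPKM in pif4, so that its rise there was 0.75 (adjusted p = 0.105) and the difference from the wild type -2.70 (adjusted p = 0.0422). AT5G02540 went from 7.49, 5.50 and 6.23 FPKM to 15.5, 9.87 and 18.6 FPKM in pif4, a difference of -2.27 (adjusted p = 0.0409). AT5G44440, annotated as an FAD-binding berberine family protein, was listed at 0 in all warm pif4 samples, against 2.05, 3.64 and 3.83 FPKM in the wild type, and differed by -1.90 (adjusted p = 0.0398). In bbx18 bbx23 the same 3 genes rose by 1.97, 3 and 1.81. The 3 calls are fragile: 0 to 2 genes were called when a wild-type sample was left out, with 0 without any 1 of the samples at 22 °C or replicate 3 at 29 °C, and 0 were called with a pseudocount of 0.1.

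Across the 136 genes chosen by the naming rule, 134 rose or fell, 109 of these in all 6 fits that left out 1 wild-type sample, and 25 lost the call in at least 1. In the fit of the wild-type samples alone the calls of UBQ3, APL1, GolS3, FAD7, CTR1, SMXL2 and FCA were lost too, beside those of genes named above as fragile. Of the 136, 14 have a close copy and 31 overlap a gene on the opposite strand, among them HSP17.4, MBF1C, LHCB2.3, BOA, PCL1, CH1, GSTF12 and HSFA3. The sources do not say if the counting used strand, so reads of such pairs cannot be told apart.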

How the data were processed

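RNA of Arabidopsis seedlings was sequenced in 18 samples, 3 for each of 3 genotypes at 22 and 29 °C. The authors deposited 1 table of FPKM per locus, per the labels, and every column was matched to a sample by its title (0 columns without a sample). Bowtie 0.12.2 is named in the submitters' processing notes, beside a mouse build that cannot apply to these plants. What genome, annotation and counting tool served was not given in the sources used here. Read numbers are not in the table, so depth is unknown.

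From the deposited FPKM, log2(FPKM + 1) was computed for loci with at least 1 FPKM in at least 3 samples. limma 3.58.1 in R 4.3.3 was fitted to all 18 samples with 1 coefficient for each of the 6 groups and a variance trend, and p-values were adjusted by Benjamini-Hochberg over all genes tested, at 0.05. Tables, exact permutation tests and figures used Python 3.11.15, pandas 2.3.3 and matplotlib 3.10.9. Close copies (at least 90% identity over at least 50% of the length) were found with blastn 2.17.0 on RefSeq TAIR10.1, which also gave promoters and names. The deposited table has no coordinates.

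Named genes were the 15 of largest fold each way without overlap of the groups and with a mean of at least 2 FPKM in the higher group, the 10 of largest FPKM difference each way, those of smallest p, up to 4 called members per list and up to 5 per interaction, beside genes named for a stated reason. Members and lists were chosen with earlier results of these data known. Families, CCL, the heat shock element lines and further list members named in the text were chosen after their values were seen. Alternatives were another pseudocount, no filter, other scalings, wild-type samples alone, no trend, a replicate block and leaving out each wild-type sample. On simulated data with 200 changed genes, the wild-type contrast recovered 66% of those set to 1 log2 and 9% of those at 0.5 log2. These were 66 and 9 right calls, beside 9 false calls among the genes left unchanged. The simulated noise was independent, with the same spread in all groups, and far fewer genes were changed than were called in the data. These rates may therefore not carry over to the data.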

Additional observations from a re-analysis of the deposited data

Results flagged for a closer look

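For 3 genes the warm response in pif4 differed from that of the wild type by the interaction test in limma. ST2A differed by -2.70 on the log2 scale (adjusted p = 0.0422), AT5G02540 by -2.27 (adjusted p = 0.0409) and AT5G44440 by -1.905 (adjusted p = 0.0398). In each the 3 warm wild-type samples lay above the 3 warm pif4 samples.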

How the results depend on the processing

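The number of genes that rose or fell was 1951 to 2273 when 1 wild-type sample was left out, 3026 after quantile normalization and 1289 with the wild-type samples alone, where 98 list members were called. For the difference between pif4 and the wild type, 0 genes were called with a pseudocount of 0.1, 1 with no filter and 0 to 2 with 1 sample left out. The difference between bbx18 bbx23 and the wild type had 0 calls in every alternative run. Same-numbered wild-type samples of the 2 temperatures did not deviate together (correlations of -0.03, -0.33 and -0.20), so the numbers do not pair these across temperatures. Whether same-numbered samples of different genotypes deviate together at 1 temperature was not tested over all genes. At 29 °C AT5G02540 was lowest in replicate 2 in every genotype. Its levels there were 91.6 FPKM (wild type), 61.7 (bbx18 bbx23) and 9.87 (pif4). ST2A was also lowest in replicate 2 in the wild type and bbx18 bbx23 (29.0 and 22.8 FPKM). In pif4 its lowest value was that of replicate 3 (5.43 FPKM). Leaving out replicate 2 at 29 °C in all genotypes, 2105 genes rose or fell. The main fit treated all 18 samples as independent. With a replicate block 3061 genes rose or fell and 5 differed in pif4. Genes that crossed from near 0 numbered 9 with limits of 0.25 and 1 FPKM, and 16 to 21 with 1 sample left out. Genes lost numbered 4 to 8. Without the 10 most abundant genes in the sum, the Calvin cycle share changed by -1.03 percentage points and the leaf growth share by 0.00148. RBCS1A stood at 0.15 after quantile normalization, and BBX18, not called, ran from -0.73 to 0.59 with 1 sample left out, the latter without replicate 1 at 29 °C. The cause of these changes was not tested. Over all results and alternatives 1985 values kept their direction and side of the threshold, 123 lost the call, 63 moved and 2 reversed.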
